A study of Mus musculus with 19 samples.

Results

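The Nduf genes encode the nuclear subunits and many of the assembly factors of respiratory complex I. All symbols starting with Nduf were taken from the count table of a mouse heart RNA sequencing study, apart from 1 pseudogene name ending in -ps. This gave 48 of 25239 symbols. They comprised 7 core subunits, 29 accessory subunits, 8 assembly factors (Ndufaf) and 4 symbols that are not complex I subunits. Those 4 are Ndufa4, now placed in complex IV, its paralog Ndufa4l2, and the processed-pseudogene rows Ndufa11b and Ndufb4c. The hearts came from Mcm8-/- mice given LCWE (n = 5) or PBS (n = 3) and from wild-type mice given LCWE (n = 6) or PBS (n = 5). LCWE is a cell wall extract of Lactobacillus casei, used to induce a Kawasaki disease-like vasculitis, and PBS is its vehicle. Mcm8 is a helicase of the minichromosome maintenance family, known for its part in homologous recombination. The labels used here give no strain, age, sex or time after injection, and do not say whether each sample is a separate animal. The tests therefore take their error from differences among these samples, which may be technical.

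Complex I takes electrons from NADH, passes them along a chain of iron-sulfur clusters to ubiquinone and pumps protons out of the mitochondrial matrix. Its core subunits carry out catalysis. In mammals the core subunits of the matrix arm are nuclear and those of the membrane pump are encoded by mitochondrial DNA. The mitochondrially encoded genes were not analysed here. Accessory subunits surround and stabilise the core, and the assembly factors help build it without staying in the finished enzyme. Cardiac muscle is among the tissues richest in this complex.

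The start sites of several members share short sequence words known as targets of nuclear respiratory regulators. For 2 of these words, some of the members that hold them recur in the comparisons and others do not. RefSeq promoters (GRCm38.p6, 250 bases before to 50 after the gene start) were matched for 40 of the 48 members. The YY1 word AAGATGGC, searched on either strand, was present in 8 of the 40 (20%) and in 3.19% of 27025 genes with promoters of the same length. A gene was counted if any of its promoters held the word. In all 8 it lay on the strand of the gene, starting between 11 and 39 bases after the start site. The windows below run 5′ to 3′ on the gene strand with the word in capitals.
Ndufs7 (chr10:80249463-80249490, plus strand): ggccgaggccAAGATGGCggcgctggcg
Ndufs4 (chr13:114388045-114388069, minus strand): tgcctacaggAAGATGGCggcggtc
Ndufa3 (chr7:3617385-3617412, plus strand): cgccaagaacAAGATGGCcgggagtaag
Ndufaf8 (chr11:120098934-120098961, plus strand): ggcagggcccAAGATGGCggcgccctcg
The other holders were Ndufa9, Ndufb8, Ndufc1 and Ndufs6.

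The NRF1 word GCGCATGC, searched the same way, was present in 5 of the 40 members (12.5%) and in 3.05% of all genes with promoters. The holders were Ndufa6, Ndufa8, Ndufa11, Ndufaf4 and Ndufaf5. The word is in capitals in the 150 bases upstream of Ndufa11, which led the wild-type LCWE comparison, and at the start of Ndufaf5, which was among the members with the largest differences in knockout hearts. These holders are shown because of their fold changes in the same data. Ndufaf4 holds the word at positions -113 and 2 from the start site and was not among the leading members. Members with and without this word were not compared.
Ndufa11 (chr17:56717612-56717761, plus strand): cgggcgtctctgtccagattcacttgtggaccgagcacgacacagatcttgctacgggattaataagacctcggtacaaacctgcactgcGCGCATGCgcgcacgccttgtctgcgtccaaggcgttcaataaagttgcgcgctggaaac
Ndufaf5 (chr2:140170652-140170679, plus strand): agtcccgttgGCGCATGCgcctaataga
The ETS word CCGGAAG was in 15% of the members and 9.93% of all genes with promoters, and CCAAT in 35% and 41.1%. The oestrogen-related receptor word TCAAGGTCA was in 0 of the 40 members and 0.466% of all genes with promoters. These matches describe letters only and do not show that a factor binds.

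Total counts per library ranged from 11853233 to 16145911. Mcm8 itself was between 0.130 and 0.910 CPM (counts scaled to the library total after TMM normalisation) in the knockout libraries, from 2 to 13 counts each, and between 2.60 and 5.19 CPM in the wild-type libraries. Heart muscle transcripts were abundant throughout, with Myh6, the cardiac myosin heavy chain, between 37077 and 61448 CPM. Of 4 brown fat markers, Ucp1 was at most 0.085 CPM, Elovl3 at most 2.28 CPM and Dio2 at most 3.09 CPM, while Cidea lay between 24.7 and 80.6 CPM. Their sum was 40.5 ± 13.4 CPM in knockout LCWE, 59.4 ± 23.7 in knockout PBS, 38.0 ± 6.73 in wild-type LCWE and 38.4 ± 5.05 in wild-type PBS, and its part in the results was not tested. The skeletal muscle marker sum varied between 7.13 and 310 CPM. Libraries with Xist above 20 CPM were 1 of 5 in knockout LCWE, 2 of 3 in knockout PBS, 5 of 6 in wild-type LCWE and 5 of 5 in wild-type PBS. The Y-linked gene sum was 151.5 CPM in knockout PBS replicate 1 and 131.3 CPM in wild-type LCWE replicate 1. It was at most 2.29 CPM in the rest of those groups and in wild-type PBS. In knockout LCWE it ran from 1.15 to 145.96 CPM, and replicate 2 had little of either (Xist 0.649, Y-linked 1.62 CPM). These sex-linked transcripts were spread unevenly over genotype. Beyond fits by Xist and with the Y-linked level as covariate, their part was not tested. Replicates 2 and 3 of wild-type LCWE were above the rest of their group in the Nduf genes. In knockout PBS the assembly factors were low in replicates 1 and 3 and not in replicate 2. The main counts and medians that rest on these libraries are also given without them.

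Of the 48 members, 45 passed the filter on low counts. The 3 that did not pass were the accessory subunit Ndufs5 (0 or 1 count per library) and the pseudogenes Ndufa11b (0 to 4 counts) and Ndufb4c (0 to 12 counts). Ndufs5 is a subunit of the membrane arm, and whether these counts reflect its level cannot be told from the table. The left-out pseudogene Ndufs5-ps held 8 to 27 counts per library. The parent genes of such copies share near-identical sequence with them, so Ndufs5, Ndufa11 and Ndufb4 are uncertain to that extent.

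Structural subunits were far more abundant than assembly factors. Over all 19 libraries, and per kilobase of the principal transcript, the 7 core subunits had a median level of 363 CPM per kb. The tested accessory subunits had a median of 356 (37.9 to 1120) and the assembly factors 18.6 (14.1 to 64.7). The highest accessory levels were those of the membrane-arm subunits Ndufb10 (1120 CPM per kb), Ndufb9 (1044) and Ndufb8 (1036). Ndufa4 was higher still, at 1498 CPM per kb.

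Among the core subunits, Ndufs7, which holds the last iron-sulfur cluster before ubiquinone, had 651 CPM per kb. Ndufv1, the flavin-binding subunit that oxidises NADH, had 613 CPM per kb. Ndufs3 had 363, Ndufs8 318.5, Ndufv2 266.5 and Ndufs1, the lowest, 224. Core subunits also varied least between libraries, with a median coefficient of variation of 11.2%, against 22.2% for accessory subunits and 19.3% for assembly factors. Ndufa10 had the lowest value of the tested accessory subunits (8.62%) and Ndufa2 the highest (30.6%).

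Nduf transcripts together made up 1.51% ± 0.105 of counts in knockout LCWE hearts, 1.38% ± 0.132 in knockout PBS hearts, 1.75% ± 0.320 in wild-type LCWE hearts and 1.54% ± 0.0871 in wild-type PBS hearts (SD, n = 5, 3, 6 and 5). The wild-type LCWE libraries had the widest range, 1.45% to 2.22%. The other 3 groups lay between 1.29% and 1.66%, so all of the groups overlapped. Set against the summed level of 12 cardiomyocyte markers, the Nduf sum was 11.8% ± 1.02 in knockout LCWE, 12.8% ± 0.679 in knockout PBS, 13.2% ± 3.21 in wild-type LCWE and 11.8% ± 0.948 in wild-type PBS. In whole tissue, fewer cells of a type and less RNA per cell cannot be told apart.

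The heat map of log2 CPM against each gene's own mean shows that the members were largely high or low together within a library.

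In wild-type LCWE, 43, 43, 45, 13, 39 and 14 of the 45 members lay above their own mean in replicates 1 to 6. In knockout LCWE the counts were 14, 8, 39, 13 and 1, in knockout PBS 8, 12 and 2, and in wild-type PBS 29, 1, 17, 20 and 19. Knockout PBS was the group with most members low in every library. The mean log2 deviation over the 45 members was 0.44 and 0.62 in wild-type LCWE replicates 2 and 3, whose ribosomal protein genes were also high (0.69 and 0.77). It lay between -0.32 and 0.14 in the other 17 libraries.

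**Figure D1:**
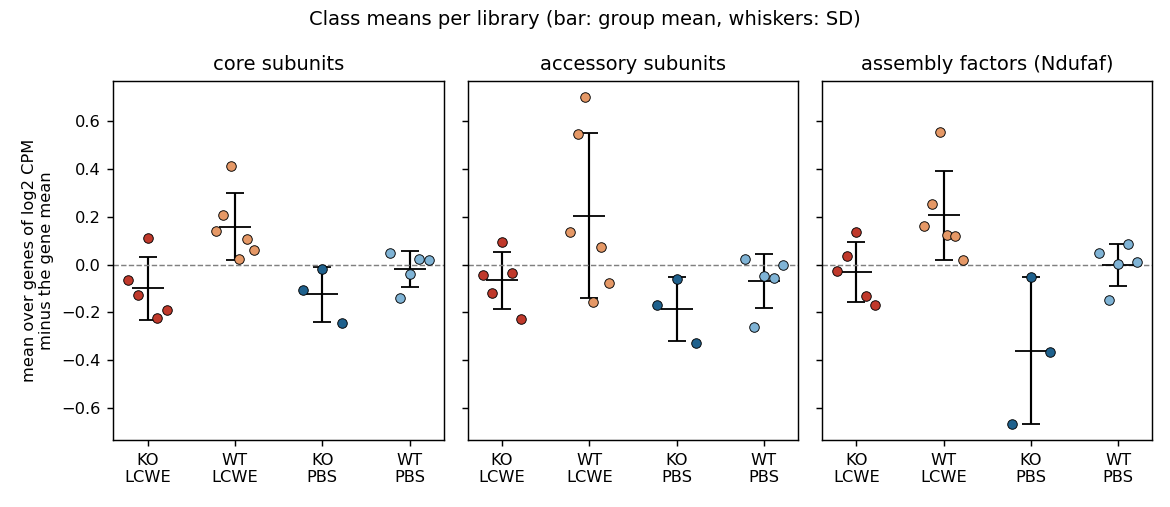
Points are libraries, and the vertical axis is the mean log2 deviation of the core subunits, accessory subunits and assembly factors from their own means, by group; bars are group means and whiskers are SD. Assembly factors in knockout PBS average -0.36, below the other groups, with 1 of its 3 libraries at -0.05 among them.

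The plot of class means separates the 3 roles. Core subunits averaged -0.10 ± 0.13 in knockout LCWE, -0.12 ± 0.11 in knockout PBS, 0.16 ± 0.14 in wild-type LCWE and -0.02 ± 0.08 in wild-type PBS (mean log2 deviation, SD). Accessory subunits averaged -0.07 ± 0.12, -0.18 ± 0.13, 0.20 ± 0.35 and -0.07 ± 0.11 in the same 4 groups. Assembly factors averaged -0.03 ± 0.12, -0.36 ± 0.31, 0.21 ± 0.19 and -0.001 ± 0.09. The accessory subunits differed most between wild-type LCWE libraries, and the assembly factors most between knockout PBS libraries.

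In Mcm8 knockout hearts, LCWE against PBS gave no called Nduf gene, and the assembly factors were the class with the largest differences. At an adjusted p of 0.05 (edgeR quasi-likelihood test, Benjamini-Hochberg over 14301 genes), 0 of 45 members were called, where 2.90% of all genes were (0.818% higher, 2.08% lower). At an unadjusted p of 0.05, 4 of 45 members were higher, no larger a share than the 10.7% of all genes. In the lower direction there were 0, against 12.7% of all genes. For 0 members did the 2 groups fail to overlap, against 4.91% of all genes in the higher and 3.70% in the lower direction. DESeq2 and limma-voom also called 0 members. Of the 45, 38 lay above 0 (50.9% of all genes did), with a median log2 fold change of 0.14.

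The 4 members with an unadjusted p under 0.05 were all assembly factors, and all 8 assembly factors lay above 0, with a median of 0.32. Their roles are known mainly from human cells. Ndufaf3, which works on the ubiquinone-binding module, had 38.7, 41.2, 45.0, 47.2 and 36.2 CPM in knockout LCWE hearts, against 22.4, 40.1 and 24.9 CPM in knockout PBS hearts. The PBS libraries 1 and 3 were below every LCWE library, and library 2 was among them. Its log2 fold change was 0.51 ± 0.19 (SE, adjusted p = 0.119).

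Ndufaf5, which hydroxylates an arginine of Ndufs7, had 19.6, 22.2, 23.4, 17.1 and 16.8 CPM in knockout LCWE hearts, against 9.66, 19.7 and 12.9 CPM in knockout PBS hearts. The same PBS libraries were the low ones, and the groups overlapped (0.49 ± 0.19, adjusted p = 0.137). Ndufaf2, a late-acting factor and paralog of the subunit Ndufa12, had 13.1, 13.8, 12.4, 14 and 11.2 CPM in knockout LCWE hearts, against 6.72, 13.4 and 9.64 CPM in knockout PBS hearts (0.38 ± 0.18, adjusted p = 0.206). Ndufaf7, a protein arginine methyltransferase, differed by 0.26 ± 0.13 (adjusted p = 0.210). The others were Ndufaf1, a factor of the membrane arm, Ndufaf4, a partner of Ndufaf3, Ndufaf6 and Ndufaf8, a partner of Ndufaf5, and all had an unadjusted p above 0.05.

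The size and the call of these differences turned on which knockout PBS libraries were used. Without knockout PBS replicate 2, 5 assembly factors were called higher under LCWE, and no core or accessory subunit was. In that fit 9.61% of all genes were called higher. Replicate 2 was the library of its group without low assembly factors. Leaving it out therefore favours these calls, and no finding is drawn from them. The called factors were Ndufaf3 (0.81 ± 0.19, adjusted p = 0.00696), Ndufaf5 (0.81 ± 0.19, 0.00642), Ndufaf2 (0.66 ± 0.17, 0.0133), Ndufaf7 (0.43 ± 0.13, 0.0237) and Ndufaf8 (0.70 ± 0.22, 0.0302). Without knockout PBS replicate 1, 0 were called, Ndufaf3 was at 0.36 ± 0.21 (adjusted p = 0.511), the assembly median was 0.18 and 1 of all genes was called. The cardiomyocyte marker sum averaged 126039 ± 11051 CPM in knockout LCWE and 111185 ± 12290 CPM in knockout PBS, and the macrophage marker sum 519 ± 230 and 206 ± 111 CPM. With all libraries, 11 of 11 macrophage markers were above 0 (median 1.41), and 3 were called higher. Of 12 cardiomyocyte markers, 8 were above 0 and 4 below (median 0.12), and 1 was called higher. Of 6 fibroblast markers, 4 were above 0 and 2 below (median 0.91), with 0 called. Their part in the Nduf differences was not tested.

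**Figure D2:**
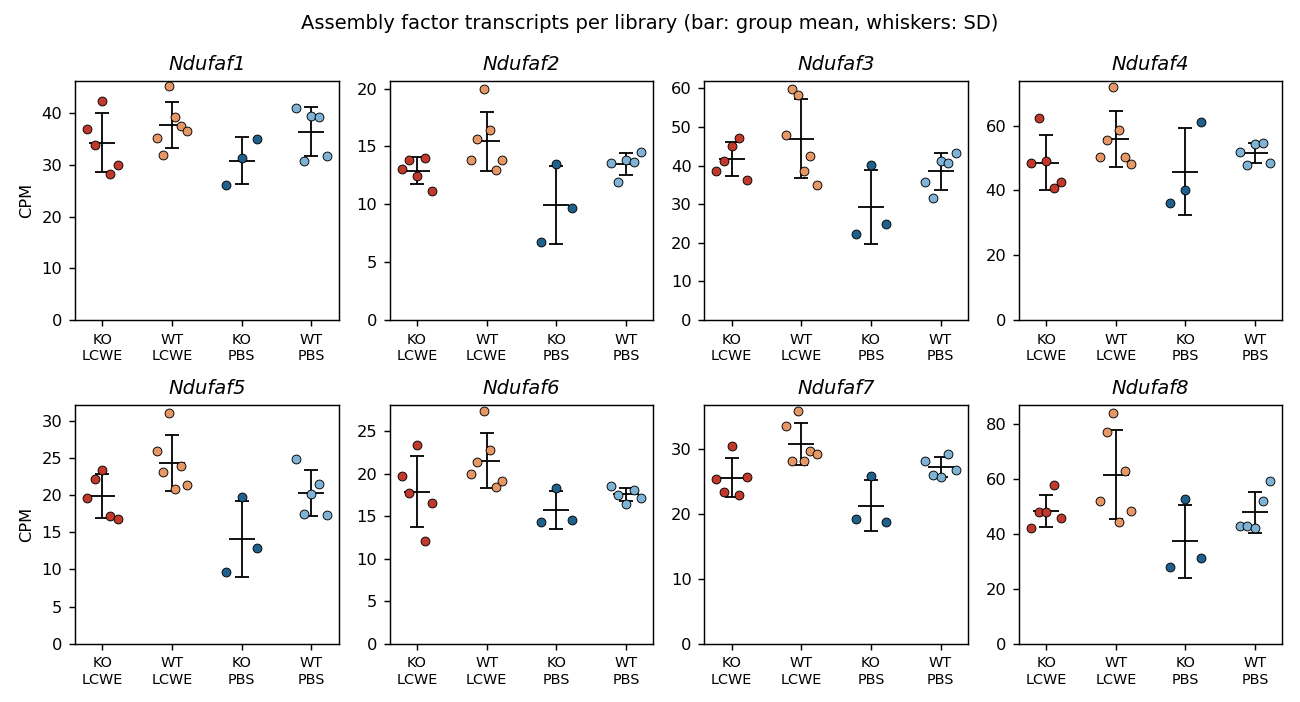
Points are libraries, and the vertical axis of each panel is CPM of 1 of the 8 Ndufaf assembly factors, by group; bars are group means and whiskers are SD. In Ndufaf2, Ndufaf3, Ndufaf5, Ndufaf7 and Ndufaf8, 2 of the 3 knockout PBS libraries sit below every other library.

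The plot of assembly factors shows this pattern gene by gene. Ndufaf8 had 28.1, 52.5 and 31.3 CPM in knockout PBS hearts, and its lowest value elsewhere was 42 CPM. Ndufaf4 did not share it, since knockout PBS replicate 3 was the third highest of all libraries at 61.2 CPM.

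The core subunits did not share the assembly factors' direction in knockout hearts. Their median log2 fold change for LCWE against PBS was -0.04, with 3 of 7 above 0. The lowest were Ndufs1 (-0.17 ± 0.12, adjusted p = 0.428), an iron-sulfur subunit of the NADH-oxidising module, and Ndufv1 (-0.16 ± 0.11, 0.394). Ndufs3 stood at -0.04, Ndufs7 at 0.08 and Ndufv2 at 0.20. Ndufs8, an iron-sulfur subunit next to the ubiquinone site, stood at 0.34 ± 0.19 (0.306). Accessory subunits had a median of 0.13, with 25 of 28 above 0. The difference between the classes was not tested.

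In wild-type hearts, nearly every Nduf gene averaged higher with LCWE than with PBS, by a small amount, and none was called. Of the 45 members, 0 passed the adjusted threshold, where 0.00% of all genes did, and DESeq2 and limma-voom called 0 as well. At an unadjusted p of 0.05, 18 members were higher and 0 lower, against 4.59% and 1.64% of all genes. Of the 45, 44 lay above 0 (51.5% of all genes did). The median log2 fold change was 0.29 over all members, 0.17 for core, 0.32 for accessory and 0.23 for assembly genes.

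Ndufa11, a membrane-arm subunit near the junction with other respiratory complexes and a holder of the NRF1 word above, had the largest value. It had 410, 499 and 809 CPM in wild-type LCWE hearts (lowest, median and highest), against 424, 368, 402, 415 and 431 CPM in wild-type PBS hearts. Replicates 2 and 3 reached 737 and 809 CPM and the lowest LCWE library was within the PBS range. Its log2 fold change was 0.46 ± 0.15 (adjusted p = 0.772, as for every member with an unadjusted p under 0.05). Without replicates 2 and 3 it was 0.16 ± 0.09. By size Ndufa2, a matrix-arm subunit, came next at 0.46 ± 0.20. Ndufb4 (0.39 ± 0.14) and Ndufb3 (0.36 ± 0.13), both of the membrane arm, had the next smallest p after Ndufa11. Of the core subunits, Ndufs8 (0.38 ± 0.16), Ndufv2 (0.30 ± 0.13) and Ndufs7 (0.28 ± 0.11) had an unadjusted p under 0.05, and Ndufs3 (0.17) and Ndufv1 (0.08) did not. Ndufs1 was the 1 member below 0, at -0.01 ± 0.10 (adjusted p = 0.994).

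Ndufab1 was the only member whose wild-type LCWE and PBS libraries did not overlap, which 0.441% of all genes did in the higher direction. It encodes the mitochondrial acyl carrier protein, which sits in both arms of complex I and serves fatty acid synthesis. It had 592, 641 and 717 CPM in wild-type LCWE hearts (lowest, median and highest), against 586, 500, 498, 563 and 577 CPM in wild-type PBS hearts. The lowest LCWE library was 592 CPM and the highest PBS library 586 CPM, a narrow gap, and the log2 fold change was 0.24 ± 0.09, or 0.17 ± 0.09 without wild-type LCWE replicates 2 and 3.

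The wild-type difference rested on replicates 2 and 3. Without them, 41 of 45 members were still above 0, but the median was 0.07 and 0 members had an unadjusted p under 0.05. The class medians were then 0.09 for core, 0.05 for accessory and 0.10 for assembly genes. The macrophage marker sum was 417 ± 135 CPM in wild-type LCWE and 260 ± 27.8 CPM in wild-type PBS, and the cardiomyocyte marker sum 137630 ± 9578 and 128431 ± 7187 CPM. Their part was not tested.

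Under LCWE, knockout hearts had lower averages than wild-type hearts in all 45 members, and none was called. The share of all genes called was 0.00699%, which was Mcm8 alone, and 0 of 45 members passed, likewise by DESeq2 and limma-voom. At an unadjusted p of 0.05, 20 members were lower and 0 higher, against 3.12% and 2.43% of all genes. All 45 lay below 0, against 49.3% of all genes, with a median log2 fold change of -0.30. The medians were -0.27 for core, -0.32 for accessory and -0.26 for assembly genes.

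This comparison shares its wild-type LCWE libraries with that of LCWE against PBS in wild type, so the 2 are not independent. Ndufab1 was here too the 1 member whose groups did not overlap, against 0.364% of all genes in the lower direction. It had 539, 513, 580, 474 and 464 CPM in knockout LCWE hearts, against 592, 641 and 717 CPM in wild-type LCWE hearts (lowest, median and highest). Every knockout library was below every wild-type library, with a log2 fold change of -0.32 ± 0.09 (adjusted p = 0.800). This difference kept its size without wild-type LCWE replicates 2 and 3, at -0.27 ± 0.09 (adjusted p = 0.554).

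The core subunits were the class whose median differed least when those libraries were left out. Ndufs7 had 595, 603, 640, 546 and 570 CPM in knockout LCWE hearts, against 635, 704 and 958 CPM in wild-type LCWE hearts (lowest, median and highest). Only knockout replicate 3, at 640 CPM, was above the lowest wild-type library. Its log2 fold change was -0.33 ± 0.11 (adjusted p = 0.804). Ndufs3, the scaffold on which the ubiquinone module starts to assemble, differed by -0.23 ± 0.08 (0.833). Ndufs8 (-0.38 ± 0.16) and Ndufv2 (-0.30 ± 0.13) also had an unadjusted p under 0.05, while Ndufs1 (-0.21 ± 0.10) and Ndufv1 (-0.12 ± 0.09) did not. Outside complex I, Ndufa4 differed by -0.29 ± 0.13 (0.876).

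Without wild-type LCWE replicates 2 and 3, 40 of 45 members were still below 0 in knockout against wild type under LCWE, with a median of -0.10 and 6 at an unadjusted p under 0.05. All 7 core subunits were below 0 (median -0.18, 4 with an unadjusted p under 0.05). The accessory median was -0.07 and the assembly median -0.14. Ndufs7 was at -0.20 ± 0.08 (adjusted p = 0.640). The ribosomal protein genes had a median of 0.19 in that fit, against -0.17 with all libraries.

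Cell type markers were read in the same comparison under LCWE. Of 12 cardiomyocyte markers, 10 were below 0 in knockout against wild type (median -0.13), with a sum of 126039 ± 11051 CPM in knockout LCWE and 137630 ± 9578 CPM in wild-type LCWE. Of 11 macrophage markers, 11 were above 0 (median 0.36), with a sum of 519 ± 230 CPM in knockout LCWE and 417 ± 135 CPM in wild-type LCWE. None of these markers was called by edgeR, 2 had an unadjusted p under 0.05, and their part in the Nduf differences was not tested.

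**Figure D3:**
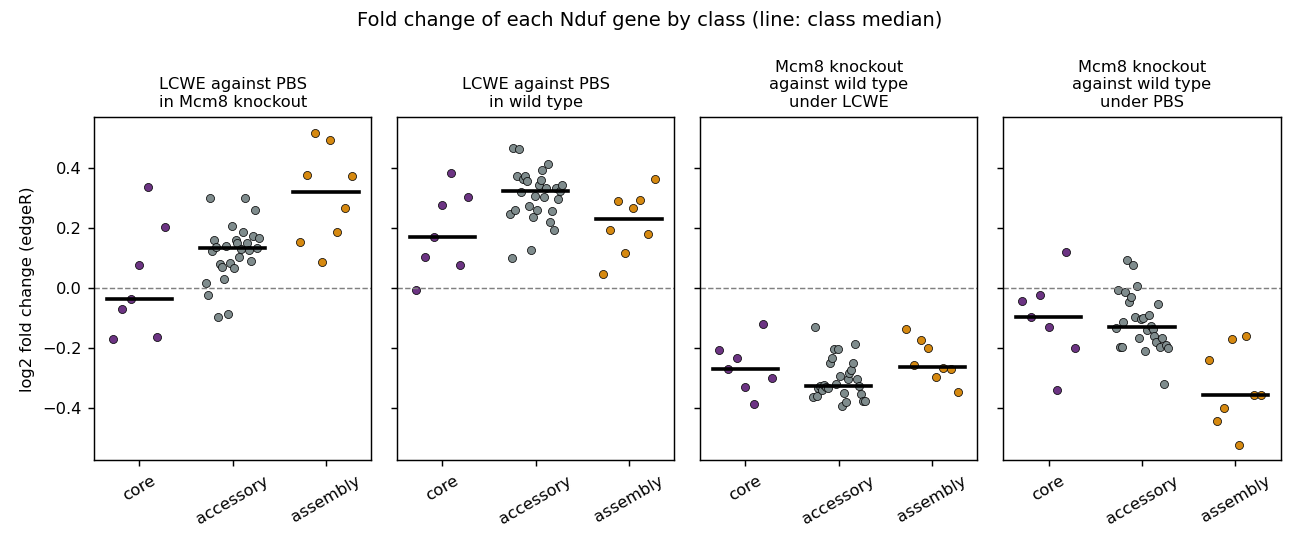
Each point is the log2 fold change of 1 tested core, accessory or assembly gene by class, in 4 comparisons (LCWE against PBS in knockout and in wild type, knockout against wild type under LCWE and under PBS); lines are class medians. The class medians for knockout against wild type under LCWE all lie between -0.32 and -0.26, while under PBS the assembly factors are lowest at -0.36.

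Under PBS, the assembly factors had the largest differences between knockout and wild-type hearts, and no Nduf gene was called. Of the 45 members, 0 passed the adjusted threshold, where 0.601% of all genes did (0.524% higher, 0.0769% lower), and DESeq2 and limma-voom called 0. At an unadjusted p of 0.05, 4 of 45 members were lower, a share near the 7.42% of all genes. In the higher direction there were 0, against 12.3% of all genes. Of the 45, 41 lay below 0, against 49.8% of all genes. The median log2 fold change was -0.14 over all members, -0.10 for core, -0.13 for accessory and -0.36 for assembly genes. As the plot of fold changes shows, each of the 8 assembly factors was below 0. This comparison and that of LCWE against PBS in knockout hearts share the 3 knockout PBS libraries.

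Ndufaf7 had 19.2, 25.8 and 18.8 CPM in knockout PBS hearts, against 28.1, 26.0, 25.7, 29.3 and 26.7 CPM in wild-type PBS hearts. Knockout libraries 1 and 3 were below all wild-type libraries and library 2 was level with the lowest of them (log2 fold change -0.35 ± 0.13, adjusted p = 0.137). Ndufaf5 differed by -0.52 ± 0.19 (0.153) and Ndufaf2 by -0.44 ± 0.18 (0.179). Without knockout PBS replicate 2, Ndufaf2, Ndufaf3, Ndufaf5, Ndufaf7 and Ndufaf8 were called lower, between -0.84 and -0.52, where 7.60% of all genes were. Leaving out that library favours these calls too, and no finding is drawn from them. Without replicate 1, 0 were called and the assembly median was -0.21. The median over all members was -0.14 without replicate 1 and -0.21 without replicate 2.

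Cell type markers were read in the same comparison under PBS. Of 12 cardiomyocyte markers, 11 were below 0 (median -0.18), with a sum of 111185 ± 12290 CPM in knockout PBS and 128431 ± 7187 CPM in wild-type PBS. Of 6 fibroblast markers 4 were below 0 (median -0.70), with a sum of 1013 ± 158 CPM in knockout PBS and 1293 ± 272 CPM in wild-type PBS, and of 11 macrophage markers 10 were below 0 (median -0.25). None was called by edgeR. At an unadjusted p under 0.05, 4 cardiomyocyte, 3 fibroblast and 1 macrophage markers were lower and 1 fibroblast marker was higher. Their part was not tested.

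Ndufa4l2, a hypoxia-induced paralog of Ndufa4, was the only member whose knockout and wild-type PBS libraries did not overlap. This 1 of 45 is no larger a share than the 3.62% of all genes in the lower direction, and no finding is drawn from it. Ndufa4l2 itself is described for its values. It had 21.1, 21.7 and 18.9 CPM in knockout PBS hearts, against 26.2, 24, 27.0, 23.9 and 31.2 CPM in wild-type PBS hearts (-0.36 ± 0.16, adjusted p = 0.217). Of the core subunits only Ndufv1 was above 0 (0.12 ± 0.11, adjusted p = 0.586), with 1244, 1001 and 998 CPM in knockout PBS hearts, against 993, 975, 974, 971 and 1066 CPM in wild-type PBS hearts. The highest was knockout replicate 1, without which the difference was 0.004 ± 0.12 (adjusted p = 0.998), and the groups overlapped. Ndufa3 (0.09 ± 0.20) and Ndufa7 (0.08 ± 0.18) were also above 0, and Ndufs8 was the lowest core subunit (-0.34 ± 0.19, 0.336).

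The LCWE effect in knockout hearts minus that in wild-type hearts had a median of -0.16 over the 45 members, with 7 above 0 (47.1% of all genes were). No member had an unadjusted p under 0.05 by edgeR, against 3.03% of all genes higher and 4.98% lower, and 0 were called by edgeR, DESeq2 or limma-voom, where 0.00% of all genes were by edgeR. The lowest adjusted p was that of Ndufv1 (-0.24 ± 0.15, 0.691), followed by Ndufs3 (-0.21 ± 0.13, 0.699) and Ndufa3 (-0.41 ± 0.26, 0.700). In the other direction, Ndufaf3 and Ndufaf5 (each 0.23 ± 0.25) and Ndufa4l2 (0.20 ± 0.21) had the smallest p. All 35 tested core and accessory subunits lay below 0 and 6 of the 8 assembly factors above it, with an assembly median of 0.10. Without wild-type LCWE replicates 2 and 3, the median over all members was 0.08.

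Exonic length, counted here over all annotated exons of a gene, moved with these differences across the whole transcriptome. Most Nduf genes have short principal transcripts. Among genes with at most 1000 bases of exon, the median log2 fold change for LCWE against PBS in wild type was 0.33 for the 9 Nduf genes and 0.26 for all 380 genes. Among genes with over 4000 bases it was 0.30 for the 5 Nduf genes and -0.05 for all 7755 genes. The principal transcripts of those 5 had 623 (Ndufb7), 1079 (Ndufb5), 2661 (Ndufs1), 3479 (Ndufab1) and 4371 bases (Ndufb2). That class therefore does not stand for long Nduf transcripts, and the fits with the length trend removed use the same exonic length. For knockout against wild type under LCWE, the shortest class had -0.34 for Nduf genes and -0.20 for all genes, and the longest class -0.30 and 0.04.

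**Figure D4:**
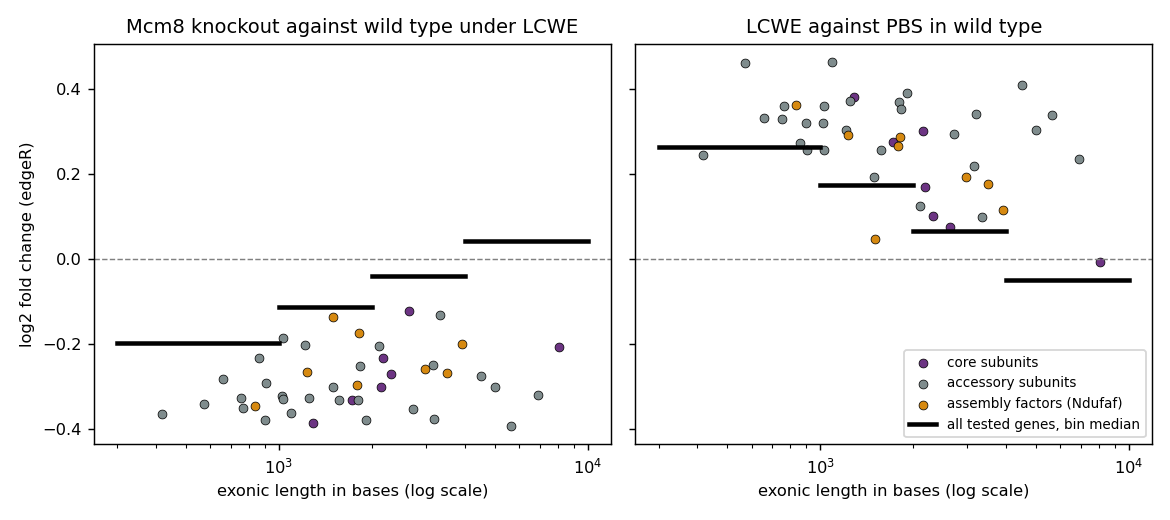
Each point is 1 tested core, accessory or assembly gene, with its log2 fold change on the vertical axis and its exonic length in bases on a log axis; black bars are the medians of all tested genes in 4 length classes. For knockout against wild type under LCWE every point lies below 0, while the medians of all genes run from -0.20 in the shortest class to 0.04 in the longest.

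With the trend over exonic length removed from each library, the median for knockout against wild type under LCWE was -0.16, with 45 of 45 below 0 and 13 at an unadjusted p under 0.05. Ndufab1, whose exons are among the longest of the members, was at -0.36 ± 0.10 (adjusted p = 0.722). For LCWE against PBS in wild type the median was 0.10, with 40 of 45 above 0. In knockout hearts the median for LCWE against PBS was -0.03, with 19 of 45 above 0, and the assembly factors had a median of 0.20. Under PBS, knockout against wild type had an assembly median of -0.27, with 8 of 8 below 0.

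The sample labels carry numbers in ranges whose meaning is not given, and the groups were spread unevenly over them. The range from 100 to under 200 held 3 knockout LCWE, 1 knockout PBS, 3 wild-type LCWE and 4 wild-type PBS libraries, and was fitted on its own. There, 24 of 45 Nduf genes rose with LCWE against PBS in wild type, where 5.21% of 14747 genes were called higher. They were 20 of 28 accessory subunits, the core subunits Ndufs8 and Ndufs7, and the assembly factors Ndufaf3 and Ndufaf8. The leading members were Ndufa11 (0.75 ± 0.13, adjusted p = 0.0130), Ndufb7 (0.70 ± 0.13, 0.0163), Ndufa2 (0.84 ± 0.16, 0.0167) and Ndufs8 (0.60 ± 0.11, 0.0167). Ndufa6 (0.64 ± 0.13), Ndufaf3 (0.54 ± 0.12), Ndufa7 (0.62 ± 0.14) and Ndufaf8 (0.63 ± 0.14) followed. This range holds wild-type LCWE replicates 2 and 3. Without replicate 2 the count was 0, without replicate 3 it was 1, and without replicate 1 it was 34. Leaving out single wild-type PBS libraries gave 1 to 13, and removing the length trend gave 6.

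In the same range, knockout PBS was replicate 1 alone, which the fit assumes to vary like the other groups. Of the 45 members, 5 were called higher for LCWE against this library, no larger a share than the 12.9% of all genes, and 5 were called lower in this library against wild-type PBS, where 13.4% of all genes were. With other single libraries left out, the median log2 fold change over the members was 0.14 to 0.25 in the first comparison and -0.22 to -0.14 in the second. Knockout against wild type under LCWE gave 0 called members, where 0.00% of all genes were called in either direction. Without wild-type LCWE replicate 1, however, 30 members were called lower (median -0.55), with 1274 genes called in all, so the count of 0 rested on that library. In the difference of the LCWE effect, 2 members were called lower, where 7.24% of all genes were, and 1 higher, where 7.89% were. These shares were below the background, and the count was 0 to 12 with single libraries left out, the 12 arising without wild-type LCWE replicate 1. No finding about the members is drawn from these calls.

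The other genes of the pathway were read from the same fits. In complexes III to V, 39 genes had medians of 0.11 and 0.30 for LCWE against PBS in knockout and in wild type, and of -0.30 and -0.10 for knockout against wild type under LCWE and under PBS. Of these, 37 of 39 were above 0 in the wild-type comparison and 39 of 39 below 0 for knockout against wild type under LCWE, and 0 were called. The 8 genes of complex II had medians of 0.09, 0.18, -0.20 and -0.09 in the same 4 comparisons, again with 0 called. The 11 tested assembly factors of complex I outside the Nduf names had 0.04, 0.05, -0.19 and -0.21, with 0 called. The 73 ribosomal protein genes, which are not mitochondrial, had 0.24, 0.43, -0.17 and 0.00.

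Among 12 regulators of respiratory gene expression, 1 was called, Yy1, the zinc finger factor whose word is shown above. It had 53.6, 61.3, 52.6, 59.5 and 52.8 CPM in knockout LCWE hearts, against 101, 63.2 and 85.0 CPM in knockout PBS hearts. All LCWE libraries were below all PBS libraries, which held for 3.70% of all genes. Yy1 fell by 0.57 ± 0.12 on the log2 scale under LCWE (adjusted p = 0.0293), where 2.08% of all genes were called lower. Against wild-type PBS hearts, with 50.5, 60.5, 59.7, 56.8 and 57.9 CPM, Yy1 was higher in knockout PBS hearts by 0.54 ± 0.12 (adjusted p = 0.0468). There, 0.524% of all genes were called higher. Both calls rest on the same knockout PBS libraries. Without replicate 1 of that group neither was kept (-0.40 ± 0.12, adjusted p = 0.243, and 0.37 ± 0.12, 0.544). With each of the 19 libraries left out in turn, the first call was kept in 14 fits and the second in 5. The LCWE effect on Yy1 differed between knockout and wild type by -0.57 ± 0.15 (adjusted p = 0.527).

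Members with and without the YY1 word had similar medians. For LCWE against PBS in knockout hearts the 8 with the word had 0.11 and the 31 tested without it 0.15. For LCWE against PBS in wild type the values were 0.29 and 0.30. Knockout against wild type gave -0.33 and -0.30 under LCWE, and -0.18 and -0.14 under PBS. These are descriptions of the members with a matched promoter, and the difference between the sets was not tested.

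The X-linked members Ndufa1 and Ndufb11, both of the membrane arm, were looked at separately because the groups differ in the share of libraries with Xist. For knockout against wild type under LCWE, Ndufa1 was at -0.36 ± 0.17 and Ndufb11 at -0.29, near the median of all members. With the libraries above 20 CPM of Xist alone, the median over the members for that comparison was -0.31, with 3 of 46 tested above 0, and rested on 1 knockout library.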

How the data were processed

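Per the labels' protocols, a kit for whole transcriptome amplification was used for reverse transcription and preamplification of heart RNA. The deposited values are whole-number counts by gene symbol, not normalized. Per the submitters' processing notes, which give no roles, STAR 2.7.8a, limma 3.36.160 and GRCm38 were used. The counting program, annotation and strand setting were not given in the sources used here. Genes were kept by filterByExpr (minimum count 10, minimum total 15), normalised with TMM factors and tested by edgeR 4.0.16 (robust quasi-likelihood, R 4.3.3) in a single model of 4 groups. CPM use TMM factors. Log2 deviations use a prior count of 2. DESeq2 1.42.0 and limma-voom 3.58.1 were alternatives. The fit was tested on simulated data. Coordinates and lengths are from GENCODE M21 (24366 symbols matched). In each comparison the members with the 3 smallest p-values in each direction were named, besides core subunits, and 1 member, kept in all counts, is not reported here on its own. Replicates were numbered in accession order and pair no samples. A chi-square over 14423 genes found no duplicate libraries (lowest value per gene 7.31 within a group and 6.85 between groups). The members and lists were chosen with earlier results of these data known. The fits without wild-type LCWE replicates 2 and 3 and those by Xist were chosen after seeing the data. So were the fit that also left out knockout PBS replicate 1, and that of the number range with the length trend removed.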

Additional observations from a re-analysis of the deposited data

Results flagged for a closer look

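Dixon's test for a library far from the rest of its group was applied to 57 sets of values, made of 15 named genes and 4 class means in 3 groups, and at its 95% level some flags arise by chance. The flags were as follows. In wild-type PBS, replicate 2 had a mean log2 deviation over all Nduf genes of -0.22 (the nearest other library was at -0.03) and over the accessory subunits of -0.26 (nearest -0.05). The same library had the lowest Ndufa3, a membrane-arm subunit, at 132 CPM (next 157 CPM). In knockout LCWE, Ndufa3 was highest in replicate 4 at 209 CPM (next 150 CPM). Ndufv1 was highest in wild-type LCWE replicate 3 at 1236 CPM (next 1045 CPM) and in wild-type PBS replicate 5 at 1066 CPM (next 993 CPM). The cause of these gaps was not tested.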

How the results depend on the processing

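No paired analysis was possible because the labels give no replicate numbers and those used here follow accession order. The count of called members, 0 in all 5 comparisons, stayed 0 under the other normalizations, filters, tools and covariates, with the exonic length trend removed, and without wild-type LCWE replicates 2 and 3. Among libraries numbered 100 to under 200 it was 5, 24, 5 and 3 (LCWE against PBS in knockout and in wild type, knockout against wild type under PBS, and the difference of the LCWE effect), and with the length trend also removed 7, 6, 5 and 6. With single libraries of that range left out these counts were 4 to 9, 0 to 34, 3 to 8 and 0 to 12, and that for knockout against wild type under LCWE, 0 with all of them, was 30 without wild-type LCWE replicate 1. With single libraries left out it was 0 to 5 in LCWE against PBS in knockout and 0 to 5 in knockout against wild type under PBS, the 5 arising without knockout PBS replicate 2. The median for LCWE against PBS in wild type was 0.48 in that number range, 0.10 with the length trend removed, 0.068 without wild-type LCWE replicates 2 and 3 and 0.073 without those and knockout PBS replicate 1. Under the last 2 settings the median was -0.097 and -0.089 for knockout against wild type under LCWE, and 0.079 and 0.069 for the difference of the LCWE effect. Ndufs1 in wild-type LCWE against PBS, near 0, turned to 0.019 (number range as covariate), 0.0028 (1 surrogate variable), 0.044 (genes detected), 0.060 (length trend), 0.066 (without wild-type LCWE replicates 2 and 3), 0.016 (number range and length trend) and 0.071 (without those and knockout PBS replicate 1), and ranged from -0.042 to 0.050 with single libraries left out. With libraries above 20 CPM of Xist alone, the difference of the LCWE effect turned to -0.085 for Ndufa4l2, -0.16 for Ndufaf5 and 0.056 for Ndufa3. The causes were not tested. Counting error is small for subunits, and widest for assembly factors and Mcm8.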
